A study of Mus musculus with 18 samples.

Results

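The comparison described here was the knockdown of Yap and Taz under FGF2 at d5: the 3 Y/T dKD+FGF2 libraries against the 3 Ctrl+FGF2 libraries, 6 of the 18 RNA-seq libraries of the study, chosen by day, siRNA and treatment as their titles give them. All libraries were of O9-1 cells, a neural crest line of the mouse that was derived from the heads of early embryos, whose genotype is labelled Wildtype, cultured in osteoblast differentiation medium. Y/T dKD+FGF2 cells received pools of siRNA against Yap (gene Yap1) and Taz (gene Wwtr1) together with FGF2, and Ctrl+FGF2 cells received scramble siRNA with FGF2. Ctrl+vehicle cells (scramble siRNA and no FGF2, n = 3 at d5) give the background level without the ligand, and the same 3 groups were also collected at d2.5. There was no group with the knockdown and no FGF2, so that an effect of the knockdown that needs FGF2 and one that does not cannot be told apart. As nothing in the labels says that replicates were separate cultures, the p-values measure the spread between these samples, which may be technical.

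Yap and Taz are transcriptional coactivators without a DNA-binding domain of their own, which act mainly through the TEAD family of transcription factors. The Hippo kinases Mst and Lats phosphorylate them and keep them in the cytoplasm, and several of their target genes encode inhibitors of the pathway. FGF2 acts through FGF receptors and the Ras-ERK cascade, which induces a set of feedback inhibitors (dual-specificity phosphatases and Sprouty proteins) and transcription factors of the Ets and AP-1 families. Neural crest cells of the head give rise to osteoblasts, which deposit a collagen-rich matrix and mineralize it.

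The 6 libraries held between 10377151 and 12801125 counts on genes, and 13304 genes passed the filter on low counts. Levels are given as CPM, the counts of a gene scaled to the size of its library. Of the fixed cell type markers, the mesenchymal genes Prrx1, Pdgfra and Vim and the osteoblast genes Runx2 and Col1a1 were present in all 6. The 8 markers of neural crest and mesenchyme summed to 7373 to 7588 CPM in Ctrl+FGF2 and 5375 to 5438 CPM in Y/T dKD+FGF2 libraries. By group means Prrx1, Pdgfra, Sox9, Vim and Tfap2a were lower, while Twist1 (65.4 to 78.5 CPM) and Snai2 (44.5 to 65 CPM) were higher. The 6 osteoblast markers summed to 14940.0 to 16616 and 20574 to 21789 CPM. Most of this sum was Col1a1 (group means of 15707 and 20520 CPM), and by group means Runx2, Sp7, Alpl, Ibsp and Bglap were higher too. Sox10, which defines migrating neural crest and glia, had no count in any of the 9 d5 libraries. The neuronal marker Elavl3, the endothelial marker Cdh5 and the red blood cell marker Hbb-bs were also without a count. The 4 epithelial markers together reached at most 0.768 CPM in a library. Other markers of these lists were present at low levels in Ctrl+FGF2 and Y/T dKD+FGF2 (group means). Stmn2 (1.23 and 2.47 CPM) and Cd68 (1.9 and 4.07 CPM) were called higher. Tubb3 (0.63 and 0.255 CPM), Pecam1 (1.44 and 1.19 CPM) and Csf1r (1.1 and 0.742 CPM) had lower means without a call. The 3 Y/T dKD+FGF2 libraries lay close together, while the Ctrl+FGF2 libraries differed among themselves in the median level of mitosis and replication genes, which was lowest in replicate 2. In such bulk samples a lower share of cells of a type and less RNA per cell cannot be told apart.

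The siRNA targets were examined first. Yap1 (chromosome 9, 7931999 to 8004596, build GRCm38) was at 149.6, 139 and 143 CPM in the Ctrl+FGF2 libraries and at 69.9, 63 and 65.8 CPM in the Y/T dKD+FGF2 libraries (log2 fold change −1.12, standard error 0.051, adjusted p = 3.55e-11). For Taz, Wwtr1 (chromosome 3, 57455649 to 57575910) went from 201, 206 and 203 CPM to 115, 119.9 and 116 CPM (log2 fold change −0.80, standard error 0.038, adjusted p = 4.92e-11). For both genes every knockdown library lay below every control library, and the remaining RNA shows that the knockdown was partial. The siRNA sequences are not given here, so the exons they match cannot be stated.

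Of the 13304 genes tested, 2079 were called higher (15.6%) and 2141 lower (16.1%) after the knockdown at an adjusted p under 0.05 (edgeR quasi-likelihood test, Benjamini-Hochberg adjustment), which is 31.7% of them. Among the called genes the absolute log2 fold change had a median of 0.34, so that most changes were small, and 201 genes rose and 223 fell at least 2-fold. The 3 libraries of one group did not overlap the 3 of the other for 44.9% of all tested genes. Among the 4220 called genes this held for 4128, so that a lack of overlap in a called gene adds little to its call. The shares of called members of each gene list are to be read against 15.6% higher and 16.1% lower.

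**Figure D1:**
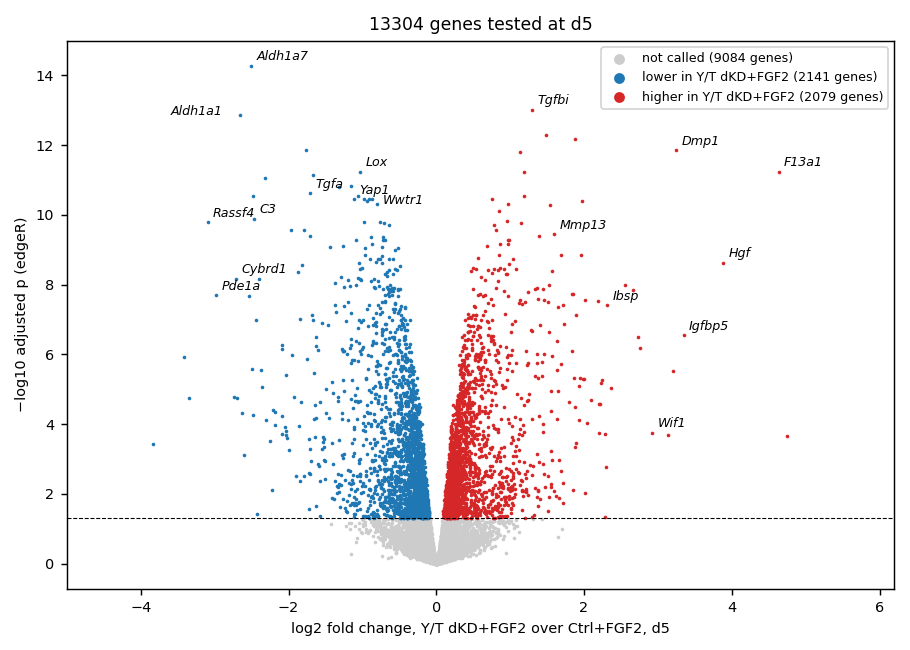
Each point is 1 of the 13304 genes tested, with the log2 fold change of Y/T dKD+FGF2 over Ctrl+FGF2 at d5 on the horizontal axis and −log10 of the edgeR adjusted p on the vertical axis; the dashed line marks 0.05. The 2079 genes called higher and the 2141 called lower spread to both sides about equally, with F13a1 at 4.63 and Rassf4 at −3.10 among the labelled extremes.

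The 12 largest rises included secreted factors and bone matrix genes. They were taken from called protein-coding genes with an average log2 CPM of 1 or more and no overlap between the groups. F13a1 (chromosome 13, 36867178 to 37050244), which encodes the transglutaminase subunit of coagulation factor XIII, was at 0.866, 0.691 and 0.679 CPM in Ctrl+FGF2 and at 19.1, 19.5 and 17.4 CPM in Y/T dKD+FGF2 cells (log2 fold change 4.63, standard error 0.18, adjusted p = 5.83e-12). Hgf (chromosome 5, 16553495 to 16620152), the ligand of the receptor Met, went from 0.52, 0.307 and 0.425 to 5.79, 6.07 and 6.97 CPM (log2 fold change 3.89, standard error 0.25, adjusted p = 2.36e-09). Dmp1 (chromosome 5, 104202613 to 104214102), an acidic matrix protein of late osteoblasts and osteocytes, went from 6.41, 5.68 and 5.52 to 48.9, 62.7 and 55.2 CPM (log2 fold change 3.25, standard error 0.11, adjusted p = 1.39e-12). As the rule asked for no overlap, the separation of the libraries in these genes was fixed by the choice. The controls of F13a1 and Hgf were below 1 CPM, so that the size of their fold changes rests on few counts. Igfbp5, a binding protein of insulin-like growth factors (3.35), the secreted Wnt inhibitor Wif1 (2.92), the neuronal pentraxin Nptx1 (2.72) and the ubiquitin ligase March4 (2.66) rose as well, all from about 1 CPM or less on average. Wif1 varied within both groups, at 1.73, 0.0768 and 0.849 CPM in the control and 3.78, 10.2 and 5.44 CPM in the knockdown libraries. The other genes among the 12 largest rises were the muscarinic receptor gene Chrm3 (2.56), the synaptic vesicle gene Syngr1 (2.37), the bone sialoprotein gene Ibsp (2.31), Tnfsf11, which encodes the osteoclast-inducing cytokine RANKL (2.24), and Pi15, a secreted peptidase inhibitor gene (2.23). Beside the neuronal genes among them, the 4 neuronal markers summed to 1.46 to 2.08 CPM in the control and 2.58 to 3.13 CPM in the knockdown libraries. These markers were split: by group means Stmn2 rose from 1.23 to 2.47 CPM and Snap25 from 0 to 0.136 CPM. Tubb3 fell from 0.63 to 0.255 CPM, and Elavl3 was at 0. The call of Stmn2 was lost without Ctrl+FGF2 replicate 2 (adjusted p = 0.0696) or Y/T dKD+FGF2 replicate 1 (0.0555). A part of neurons in these rises was not tested.

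The largest falls were led by a Ras-association gene and by enzymes. Rassf4 (chromosome 6, 116633008 to 116673952), of the Ras-association domain family, was at 14.5, 15.7 and 14.3 CPM in Ctrl+FGF2 and at 1.53, 2.34 and 1.24 CPM in Y/T dKD+FGF2 cells (log2 fold change −3.10, standard error 0.16, adjusted p = 1.62e-10). Aldh1a1 (chromosome 19, 20492715 to 20643465), a retinaldehyde dehydrogenase that makes retinoic acid, went from 127, 108 and 122 to 20.4, 18.8 and 16.8 CPM (log2 fold change −2.66, standard error 0.078, adjusted p = 1.37e-13). Its near-identical neighbour Aldh1a7 went from 417, 379 and 400.0 to 68.9, 70.3 and 70.8 CPM (−2.51), and reads of this pair could be split between them. The largest falls were picked by the same rule, so that the groups could not overlap in them. Also lower were genes of oxidative and metabolic enzymes: the amine oxidase Aoc3 (−2.53), the ferric reductase Cybrd1 (−2.72), the cyclic nucleotide phosphodiesterase Pde1a (−2.98), carbonic anhydrase 2 (Car2, −2.50) and the acyl-CoA synthetase Acsl6 (−2.44). The complement gene C3 went from 31.8, 24.4 and 27.8 to 4.9, 5.84 and 4.2 CPM (−2.47). Perp, which encodes a membrane protein of desmosomes (−2.40), and the chemokine receptor gene Cxcr4 (−2.37) were also among the 12 largest falls. Pde1a, Car2 and Cxcr4 averaged 0.863, 0.708 and 0.693 CPM in the knockdown libraries, so that the size of their fold changes rests on few counts.

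**Figure D2:**
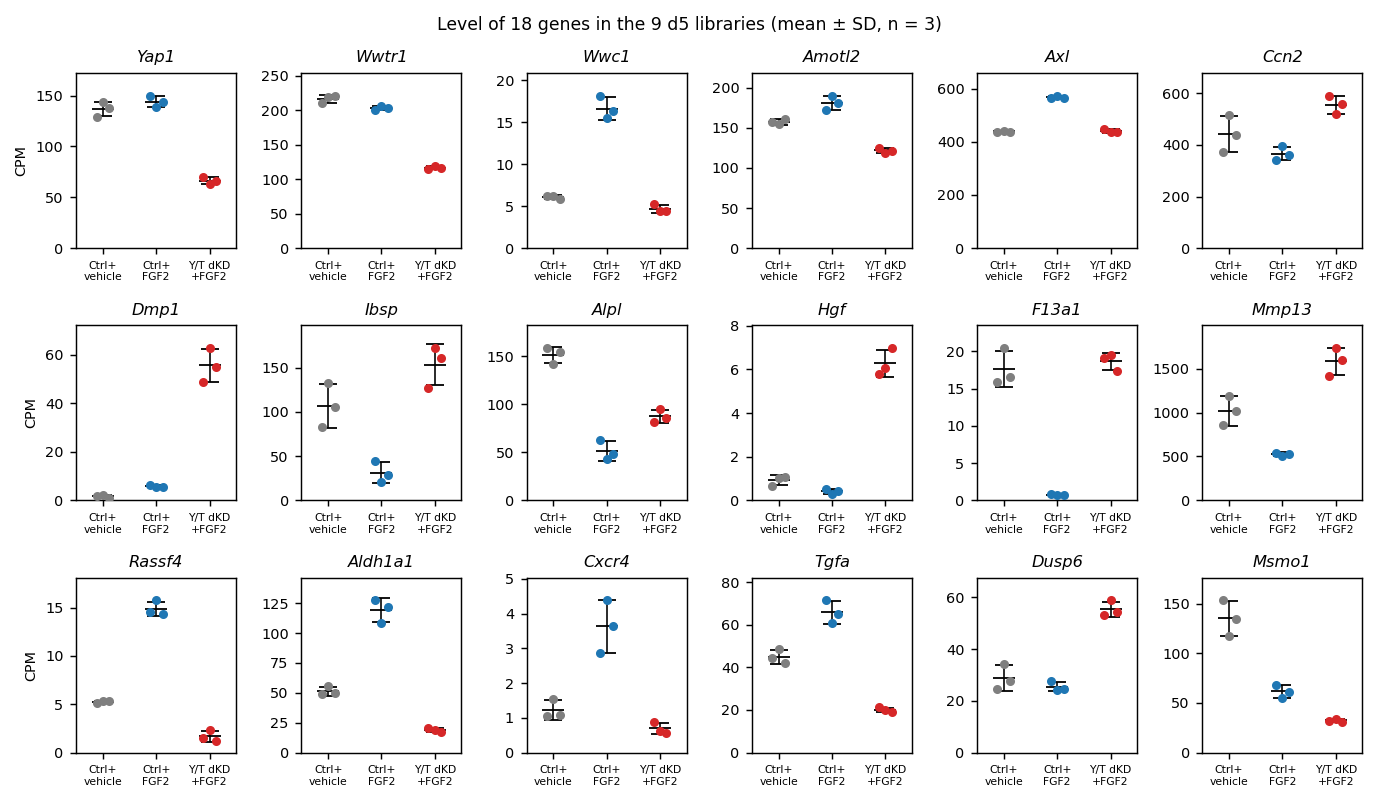
Level of 18 genes in the 9 d5 libraries, in CPM on a linear axis that starts at 0; points are libraries, and the bar and whiskers are the mean and SD (n = 3) of each of the 3 groups. The Y/T dKD+FGF2 points lie apart from the Ctrl+FGF2 points in every panel, while their place beside Ctrl+vehicle differs from gene to gene, as in F13a1 (back to the vehicle level) and Dmp1 (above both).

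Per kilobase of exon, the highest levels among the genes changed at least 1.5-fold were those of matrix and cytoskeletal genes. Col3a1, a fibrillar collagen, went from 916 to 1486 CPM per kilobase (group means; log2 fold change 0.70). Osteopontin (Spp1) went from 1018 to 1551 (0.61) and the BMP antagonist Grem1 from 424 to 647 CPM per kilobase (0.61). On the other side, the intermediate filament gene Vim went from 968 to 619 (−0.65), the small proteoglycan osteoglycin (Ogn) from 1453 to 928 (−0.65) and Lox, the enzyme that cross-links collagen, from 709.9 to 348 CPM per kilobase (−1.03). Col3a1 and Lox thus changed in opposite directions, with Lox at 3234, 3603 and 3339 CPM in the control libraries and 1715, 1601 and 1674 CPM in the knockdown libraries.

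The canonical targets of Yap and Taz did not move one way. Of 27 listed targets, all of them tested, 10 were called lower and 8 higher. Their median was −0.064 on the log2 scale, beside 0.0034 over all tested genes, and 0.034 without Ctrl+FGF2 replicate 2. The strongest fall was in Wwc1, which encodes the Hippo activator Kibra: it was at 18.1, 15.4 and 16.3 CPM in Ctrl+FGF2 and 5.22, 4.44 and 4.39 CPM in Y/T dKD+FGF2 cells (log2 fold change −1.82, standard error 0.12, adjusted p = 2.80e-09). The kinase gene Nuak2 also fell (−0.77, adjusted p = 0.00507). The coagulation initiator gene F3 rose from 74.2, 89.6 and 84.1 to 153, 162 and 155 CPM (log2 fold change 0.92, standard error 0.061, adjusted p = 3.44e-09) and the stress gene Gadd45a by 0.61. The next genes were chosen after their values were seen, as the targets best known or with a TEAD motif. Amotl2, which encodes an angiomotin that binds Yap, went from 173, 189.7 and 181 to 125, 119 and 121 CPM (−0.57, adjusted p = 1.28e-08). The receptor tyrosine kinase gene Axl went from 566, 572 and 565 to 449.5, 436 and 438 CPM (−0.36, adjusted p = 1.06e-07), and Ankrd1, a cardiac ankyrin repeat gene, from 18.7, 21.4 and 18.3 to 16.1, 11.9 and 13.2 CPM (−0.51, adjusted p = 0.00158). These 3 genes were thus lower in every knockdown library. The matricellular genes Ccn1 and Ccn2, the targets most often used as readouts, were higher instead. Ccn1 was at 391, 420.2 and 408 CPM in the control and 496, 516 and 498 CPM in the knockdown libraries (0.31, adjusted p = 1.77e-05), and Ccn2 at 343, 395 and 361 and 589, 520.3 and 558 CPM (0.60, adjusted p = 1.60e-05).

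The promoters of 4 of these targets are shown because they hold the TEAD core motif CATTCC and yet their genes moved in both directions. The sequences are RefSeq windows from 250 bases before to 50 after the start site, on GRCm38.p6 (the build mm10 of the counts), read 5′ to 3′ on the strand of the gene, with CATTCC or its reverse complement GGAATG in capitals.
Ankrd1 (chr19:36119795-36120094, minus strand): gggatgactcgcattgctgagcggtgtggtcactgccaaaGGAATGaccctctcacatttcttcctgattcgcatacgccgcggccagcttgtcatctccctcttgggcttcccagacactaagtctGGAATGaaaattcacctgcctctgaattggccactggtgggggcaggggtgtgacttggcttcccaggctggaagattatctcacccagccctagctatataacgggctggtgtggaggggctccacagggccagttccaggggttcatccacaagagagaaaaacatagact
Amotl2 (chr9:102717554-102717853, plus strand): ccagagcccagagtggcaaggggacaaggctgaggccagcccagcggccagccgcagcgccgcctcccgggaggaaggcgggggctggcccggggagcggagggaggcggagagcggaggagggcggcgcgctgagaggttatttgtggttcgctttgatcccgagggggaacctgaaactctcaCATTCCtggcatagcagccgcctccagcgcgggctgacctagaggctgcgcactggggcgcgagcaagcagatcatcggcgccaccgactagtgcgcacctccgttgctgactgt
Axl (chr7:25788684-25788983, minus strand): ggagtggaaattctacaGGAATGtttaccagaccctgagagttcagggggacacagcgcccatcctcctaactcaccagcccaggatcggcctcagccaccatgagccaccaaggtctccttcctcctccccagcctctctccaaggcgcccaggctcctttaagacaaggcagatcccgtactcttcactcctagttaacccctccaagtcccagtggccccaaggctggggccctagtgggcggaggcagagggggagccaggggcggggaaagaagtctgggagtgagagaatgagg
Ccn1 (chr3:145649936-145650235, minus strand): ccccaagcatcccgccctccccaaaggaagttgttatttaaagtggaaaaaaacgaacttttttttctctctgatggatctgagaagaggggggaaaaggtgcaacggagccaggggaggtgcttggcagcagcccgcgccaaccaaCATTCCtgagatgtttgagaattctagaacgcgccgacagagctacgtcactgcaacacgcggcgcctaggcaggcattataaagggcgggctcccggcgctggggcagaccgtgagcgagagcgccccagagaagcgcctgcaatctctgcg
The falling Ankrd1 has 2 matches, which begin 210 and 123 bases before the start site, and the falling Amotl2 and Axl have 1 each, at 65 and 233 bases. The rising Ccn1 has 1 match, 103 bases before its start. Of the 27 listed targets 20 had a promoter in the table, and 9 of these 20 genes (45%) held the motif on either strand, against 16.6% of 27025 genes and 14.7% of all 32851 promoters of this length. Among the 9, 4 genes were called lower, 1 was called higher and 4 were not called; among the 11 without it, 3 were lower, 5 higher and 3 not called. A match describes these letters only and is not a measured binding site.

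Genes of the Hippo pathway itself moved by small amounts apart from the siRNA targets. Of 21 tested members of the core pathway and the TEAD partners, 8 were called higher and 4 lower (median 0.038), the 4 being Yap1, Wwtr1, the TEAD cofactor gene Vgll3 (−0.58) and the large cadherin gene Fat4 (−0.63). Vgll3 went from 428, 483 and 441 to 304, 289 and 309 CPM. The 8 that rose, among them Lats1, Mob1a and Nf2, did so by at most 0.26 (Mob1b), and their number was 5 without Y/T dKD+FGF2 replicate 3. Tead1, the most studied partner, was at 245, 260.3 and 258 CPM in the control and 236, 238 and 249 CPM in the knockdown libraries and was not called (adjusted p = 0.13).

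Genes of bone matrix and mineralization were higher after the knockdown. Of 25 tested, 16 were called higher and 4 lower (median 0.32), and the number higher was 16 in each of the 6 fits that left out 1 of the compared libraries. Besides Dmp1, Ibsp rose from 44.2, 20.8 and 28.5 to 127, 172 and 161 CPM (log2 fold change 2.31, standard error 0.19, adjusted p = 3.95e-08). Enpp1, whose enzyme makes the mineralization inhibitor pyrophosphate, went from 5.54, 6.07 and 5.35 to 19.5, 23.1 and 23.8 CPM (log2 fold change 1.96, standard error 0.12, adjusted p = 1.41e-09), and Mgp, which encodes the matrix Gla protein, also an inhibitor of mineralization, from 218, 214 and 223 to 630.2, 667 and 600.3 CPM (log2 fold change 1.54, standard error 0.073, adjusted p = 5.04e-11). Genes that favour mineralization and genes that inhibit it were therefore both among the genes that rose. Alpl, tissue-nonspecific alkaline phosphatase, and Col1a1 are given as best-known members, chosen after their values were seen. Alpl was at 63, 43.6 and 47.8 CPM and 81.6, 95.3 and 86.2 CPM (0.78, adjusted p = 5.59e-06), and Col1a1 at 14607, 16348 and 16167 and 20228, 21264 and 20068 CPM (0.39, adjusted p = 2.54e-06). The groups did not overlap in either. The 2 osteocalcin genes Bglap and Bglap2 were below 1 CPM in every Ctrl+FGF2 library and between 1.21 and 2.26 CPM after the knockdown, and as near-identical copies they may share reads. The 4 that fell were Smpd3, a sphingomyelinase gene needed for normal bone (−1.03), Ogn, the phosphate transporter gene Slc20a2 (−0.37) and osteomodulin (Omd, −0.15).

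Among the transcription factors of the osteoblast lineage more were called higher than lower. Of 13 tested, 6 were called higher and 1 lower (median 0.15). Sp7, which encodes osterix, was at 49.6, 35.3 and 40.9 CPM in Ctrl+FGF2 and 65.3, 66 and 66.2 CPM in Y/T dKD+FGF2 cells (log2 fold change 0.65, standard error 0.085, adjusted p = 1.16e-05). Msx1, a homeobox gene of the craniofacial mesenchyme, rose by 0.41 and Runx1 fell by 0.47 on the log2 scale. Runx2, the master regulator of the lineage, stood at 176, 168 and 163 and 182, 189 and 191 CPM (0.15, adjusted p = 0.0356). The call of Runx2 was lost without Ctrl+FGF2 replicate 2 (adjusted p = 0.0671) or 3 (0.152) and without Y/T dKD+FGF2 replicate 2 (0.127) or 3 (0.116). That of Twist2 (0.46) was lost without the same 4 libraries, and only 3 of the list were called higher without Ctrl+FGF2 replicate 3 or Y/T dKD+FGF2 replicate 2.

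Collagens and matrix proteases held more genes called higher than lower. Of 22 tested collagens outside the mineralization list, 12 were called higher and 5 lower (median 0.21), with Col24a1 (1.53), a minor fibrillar collagen of bone, and the basement membrane gene Col18a1 (0.81) among the rises and Col8a1 (−0.70) the largest fall. Col18a1 went from 546, 468 and 503 to 836, 961 and 854 CPM and Col8a1 from 492, 515 and 507 to 308, 309.6 and 311 CPM. Col11a2 (0.95) lost its call without Ctrl+FGF2 replicate 2 (adjusted p = 0.0536) or Y/T dKD+FGF2 replicate 2 (0.074). Of 25 tested proteases and inhibitors, 14 were higher and 5 lower (median 0.34; 3 lower without Ctrl+FGF2 replicate 1 or 3 or Y/T dKD+FGF2 replicate 2). The collagenase gene Mmp13, which is made by hypertrophic chondrocytes and osteoblasts, was at 543, 501 and 529 CPM in the control and 1418, 1734 and 1596 CPM in the knockdown libraries (log2 fold change 1.59, standard error 0.088, adjusted p = 3.56e-10). The stromelysin gene Mmp10 rose from 5.63, 11.8 and 7.39 to 37.6, 37 and 40.9 CPM (2.19), the metalloproteinase inhibitor gene Timp1 rose by 0.96, and Mmp28 fell from 49.7, 43.1 and 43.7 to 19.1, 21.6 and 18.7 CPM (−1.19). Of 10 tested chondrogenic genes 1 was higher, the link protein gene Hapln1 (0.30), and 3 were lower, the aggrecan gene Acan (−0.53), Sox9 (−0.43) and Sox5 (−0.32), the last no longer called without Ctrl+FGF2 replicate 2 (adjusted p = 0.0582) or 3 (0.0774) or Y/T dKD+FGF2 replicate 1 (0.058). The median of the list was −0.04. Without Ctrl+FGF2 replicate 2 it was −0.19, with 2 genes called higher, and over the fits that left out 1 compared library it ran from −0.19 to 0.14.

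**Figure D3:**
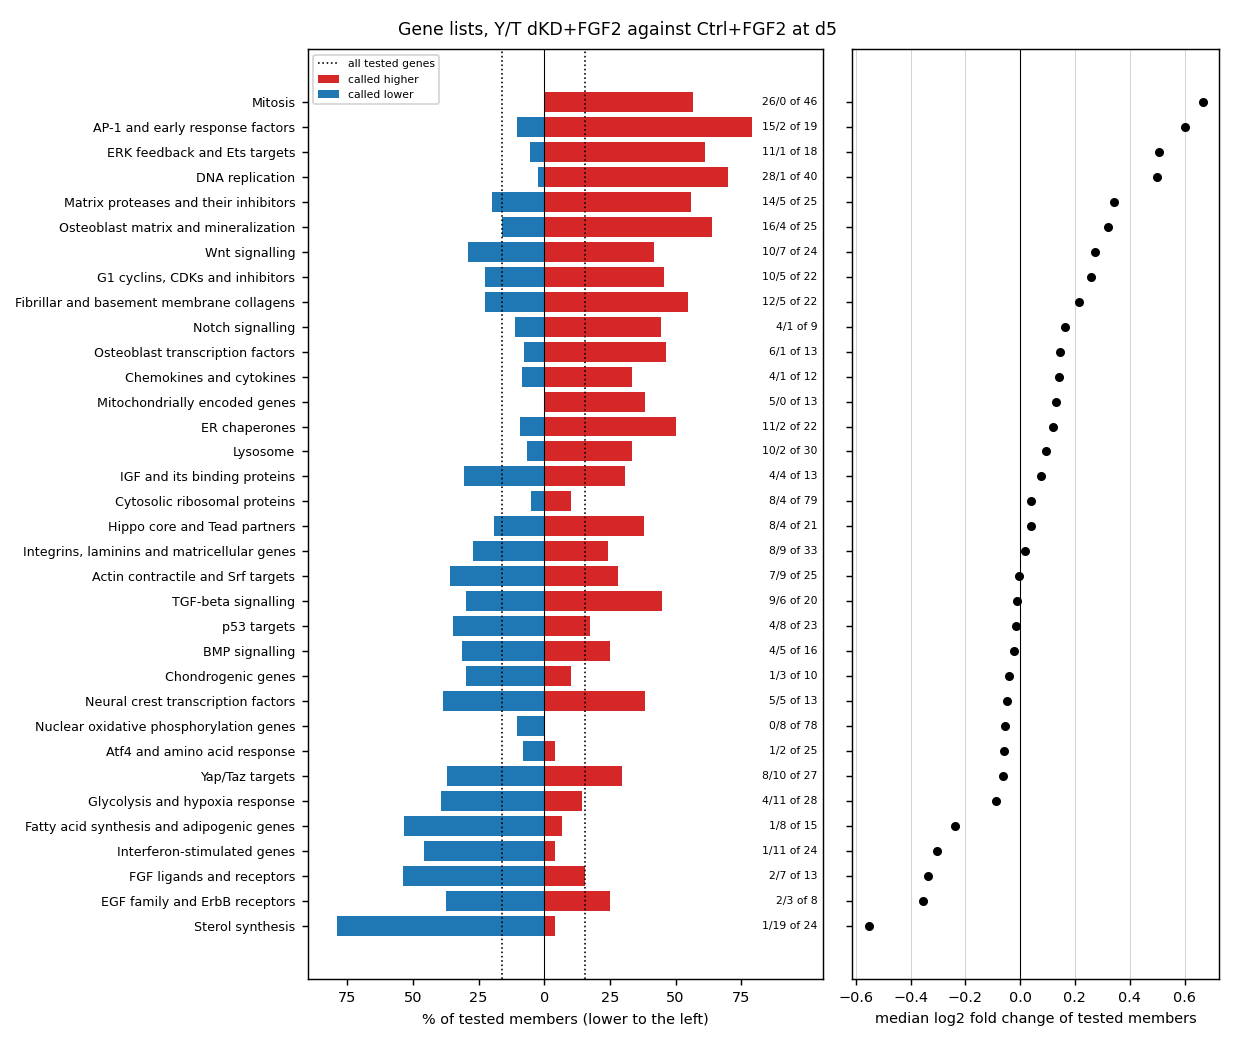
For each of the 34 gene lists, the left panel gives the share of tested members called higher (to the right) and lower (to the left) in Y/T dKD+FGF2 cells with the counts beside it, and dotted lines at the shares of all tested genes, 15.6% and 16.1%; the right panel gives the median log2 fold change of the tested members. Sterol synthesis (1 higher and 19 lower of 24) and the AP-1 and early response factors (15 higher and 2 lower of 19) stand farthest from the dotted lines on either side.

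Feedback genes of the ERK cascade and Ets genes were higher in knockdown cells, with FGF2 present in both groups. Of 18 tested feedback and Ets genes, 11 were called higher and 1 lower (median 0.51), and the number higher was 11 in every fit that left out 1 compared library. Dusp6, the phosphatase that inactivates ERK in the cytoplasm, was at 27.5, 24.3 and 24.7 CPM in Ctrl+FGF2 and 53.1, 58.9 and 54.2 CPM in Y/T dKD+FGF2 cells (log2 fold change 1.12, standard error 0.089, adjusted p = 3.29e-08). Its nuclear relative Dusp4 went from 2.42, 2.38 and 2.04 to 8.52, 8.33 and 8.59 CPM (log2 fold change 1.89, standard error 0.16, adjusted p = 7.54e-08) and the Ets factor gene Etv4 from 10.8, 9.14 and 9.85 to 29.4, 28.6 and 27.3 CPM (log2 fold change 1.52, standard error 0.14, adjusted p = 2.31e-07). In all 3 genes the control libraries lay within a narrow band and every knockdown library lay well above it. Phlda1, another growth factor response gene, rose by 1.46. The gene called lower was Il17rd, which encodes the FGF antagonist Sef (−0.32, adjusted p = 0.025), and it was not called without Ctrl+FGF2 replicate 2 or 3 or Y/T dKD+FGF2 replicate 2 or 3. The AP-1 and early response factors rose likewise, 15 of 19 being called higher and 2 lower (median 0.60). Fosl1 (Fra-1) went from 5.28, 3.0 and 5.18 to 9.08, 11.3 and 9.84 CPM (log2 fold change 1.18, standard error 0.17, adjusted p = 2.74e-05; adjusted p = 0.119 when both strands were counted), Fos from 10.3, 13.8 and 12.2 to 23.5, 23 and 22.5 CPM (0.92), and Atf3 and Ier3 rose by 0.92 and 0.80. The 2 that fell were the Krüppel-like factors Klf2 (−0.65) and Klf4 (−0.30), the latter not called without Ctrl+FGF2 replicate 2 (adjusted p = 0.0548). RNA levels do not measure the activity of ERK itself. For Ctrl+FGF2 against Ctrl+vehicle at d5, the feedback and Ets genes had a median log2 fold change of 0.26. Among them, Dusp6 (−0.19), Dusp4 (−0.26) and Phlda1 (−0.42) were not raised by FGF2, while Etv4 was (1.23).

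Ligands and receptors of the FGF and EGF families moved in both directions. Of 13 tested FGF ligands, receptors and adaptors, 7 were lower and 2 higher (median −0.34). Fgf10, a ligand of mesenchymal cells, went from 44.2, 42.5 and 40.9 to 21.5, 19.8 and 21 CPM (log2 fold change −1.03, standard error 0.072, adjusted p = 6.69e-09), and Fgf18, which acts on skeletal growth, from 5.97, 5.61 and 5.18 to 2.33, 1.56 and 2.96 CPM (log2 fold change −1.31, standard error 0.23, adjusted p = 2.90e-04). The receptor genes were split. The 2 genes of the list that rose were Fgfr1 from 456, 409 and 441 to 622, 665 and 611 CPM (0.54, adjusted p = 7.27e-08) and Fgfr3 from 25.8, 16.7 and 19.4 to 29.6, 37.2 and 31.3 CPM (0.68, adjusted p = 3.35e-04), whereas Fgfr2 (−0.34, adjusted p = 2.53e-06) and Fgfrl1 (−0.35, adjusted p = 3.87e-04), named after their values were seen, fell. Of 8 tested genes of the EGF family, 3 were lower and 2 higher (median −0.35). Tgfa, an EGF receptor ligand, was at 71.3, 60.6 and 65.2 CPM in the control and 21.2, 19.9 and 19.2 CPM in the knockdown libraries (log2 fold change −1.71, standard error 0.075, adjusted p = 2.40e-11). The receptor gene Egfr fell with it, from 12.6, 10.1 and 11.6 to 5.14, 4.9 and 5.44 CPM (log2 fold change −1.14, standard error 0.12, adjusted p = 1.43e-06), as did the ligand gene Hbegf (−0.55). Ereg, another ligand gene, was called higher (0.54, adjusted p = 0.0217), though not without Ctrl+FGF2 replicate 2 (0.0965) or Y/T dKD+FGF2 replicate 2 (0.0898) or 3 (0.0699), where 1 gene of the family was higher.

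Other signalling pathways changed in both directions. Of 24 tested Wnt genes, 10 were higher and 7 lower (median 0.27): next to Wif1, the osteogenic ligand gene Wnt10b rose from 2.34, 2.07 and 2.04 to 6.35, 6.23 and 7.54 CPM (1.63), while the feedback inhibitor gene Nkd1 (−1.58) and the noncanonical ligand gene Wnt5a (−1.06) fell. Wnt5a was at 17, 19.6 and 18.3 CPM in the control and 9.0, 9.19 and 8.12 CPM in the knockdown libraries. Of 9 Notch genes, 4 were higher and 1 lower (median 0.16). The target genes Hes1 (1.07) and Hey1 (0.86) and the ligand gene Dll1 (0.78) rose, and the receptor gene Notch3 fell (−0.49). Of 20 TGF-beta genes, 9 were higher and 6 lower (median −0.013; 3 lower without Ctrl+FGF2 replicate 3 or Y/T dKD+FGF2 replicate 1 or 3). Tgfbi, a matrix protein gene named for its induction by TGF-beta, went from 148, 148 and 149 to 358, 362 and 370.5 CPM (log2 fold change 1.29, standard error 0.036, adjusted p = 9.69e-14), and Pmepa1, an inhibitor of the pathway that it induces, rose (0.70), whereas the latent TGF-beta binding protein gene Ltbp2 fell (−1.05). Of 16 BMP genes, 4 were higher and 5 lower (median −0.024; 3 lower without Ctrl+FGF2 replicate 2 or Y/T dKD+FGF2 replicate 2 or 3). Grem1 was at 1644, 1860.1 and 1773 CPM in the control and 2663, 2710.1 and 2685 CPM in the knockdown libraries (0.61), and the antagonist gene Chrd fell (−0.52), a call lost without Ctrl+FGF2 replicate 2 (adjusted p = 0.0693) or Y/T dKD+FGF2 replicate 3 (0.0641). Of 13 genes of the IGF system, 4 were higher and 4 lower (median 0.078), among them Igfbp5, the protease gene Pappa (0.48) and Igfbp7 (−0.35).

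Of the 34 lists, sterol synthesis had the largest share of members called lower. Of 24 tested genes, 19 were called lower and 1 higher (median −0.55), and between 16 and 19 were lower in the fits that left out 1 library. Msmo1, a sterol demethylase gene, was at 68.6, 55.5 and 61 CPM in Ctrl+FGF2 and 32.1, 34.3 and 30.7 CPM in Y/T dKD+FGF2 cells (log2 fold change −0.92, standard error 0.098, adjusted p = 1.02e-06). Idi1, the isopentenyl diphosphate isomerase, went from 15, 12.9 and 13.8 to 7.31, 8.56 and 7.16 CPM (log2 fold change −0.84, standard error 0.13, adjusted p = 5.28e-05). In both genes every knockdown library lay below every control library, a separation seen in 4128 of the 4220 called genes. The 1 gene of the list called higher was Ebp (0.21), which encodes a sterol isomerase. Of 15 tested genes of fatty acid synthesis and adipocytes, 8 were lower and 1 higher (median −0.24; 2 higher without Ctrl+FGF2 replicate 1), with the adipocyte regulator Pparg falling from 17.4, 18.6 and 17.3 to 11.9, 10.5 and 12.3 CPM (−0.62) and the lipid droplet gene Plin2 rising from 120.4, 136 and 138 to 209, 227 and 206 CPM (0.70). The 3 adipocyte markers, of which Pparg is one, summed to 22.3 to 22.4 CPM in the control and 14.9 to 16.9 CPM in the knockdown libraries.

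The promoters of Idi1 and Msmo1 are shown for what the sterol genes share: CCAAT, the box bound by NF-Y, in capitals on either strand (CCAAT or ATTGG), in the same RefSeq windows of GRCm38.p6.
Idi1 (chr13:8885356-8885655, plus strand): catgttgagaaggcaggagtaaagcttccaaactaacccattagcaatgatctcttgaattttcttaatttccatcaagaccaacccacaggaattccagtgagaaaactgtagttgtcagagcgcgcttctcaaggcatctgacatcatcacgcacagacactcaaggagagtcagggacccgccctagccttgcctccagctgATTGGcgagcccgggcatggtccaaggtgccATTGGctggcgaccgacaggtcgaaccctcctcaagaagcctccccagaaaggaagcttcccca
Msmo1 (chr8:64733529-64733828, minus strand): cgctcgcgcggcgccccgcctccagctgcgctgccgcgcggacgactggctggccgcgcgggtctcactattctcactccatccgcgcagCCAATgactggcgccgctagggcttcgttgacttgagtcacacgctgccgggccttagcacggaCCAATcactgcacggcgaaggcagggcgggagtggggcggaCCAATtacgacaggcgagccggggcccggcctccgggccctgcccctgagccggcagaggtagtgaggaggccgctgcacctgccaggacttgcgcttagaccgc
Idi1 holds 2 matches, 45 and 14 bases before the start site, and Msmo1 holds 3, at 160, 96 and 55 bases. All 16 of the 24 sterol genes that had a promoter in the table held CCAAT or ATTGG, against 41.1% of 27025 genes and 37.4% of all promoters of this length. Of these 16, 12 were called lower, 1 higher and 3 were not called. As no matched gene lacked the motif, genes with and without it could not be compared within the list.

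Other lists of metabolism changed less. Of 28 tested genes of glycolysis and the hypoxia response, 11 were lower and 4 higher (median −0.09). The aldolase gene Aldoc (−1.5), the vasodilator peptide gene Adm (−0.94), the pyruvate dehydrogenase kinase gene Pdk1 (−0.74) and the phosphofructokinase gene Pfkp (−0.67) fell. Pdk1 went from 36.6, 36.3 and 38 to 22.7, 21.6 and 22.1 CPM. Of 78 nuclear genes of oxidative phosphorylation, 8 were lower and 70 not called (median −0.057), among them Ndufa3 (−0.26), with 4 lower without Ctrl+FGF2 replicate 3 and 3 without Y/T dKD+FGF2 replicate 3. Of the 13 mitochondrially encoded genes, 5 were higher (median 0.13), 3 without Ctrl+FGF2 replicate 2 or 3 and 2 without Y/T dKD+FGF2 replicate 1 or 3, and these calls were lost when all 18 libraries were fitted together. Of 79 cytosolic ribosomal protein genes, 8 were higher and 4 lower (median 0.04), which is below the shares of all tested genes; 2 to 5 were higher without Ctrl+FGF2 replicate 2 or 3 or any 1 knockdown library, and 1 or 2 lower without Ctrl+FGF2 replicate 2 or 3 or Y/T dKD+FGF2 replicate 1 or 3. Of 25 genes of the Atf4 and amino acid response, 1 was higher, Cebpb (0.39), and 2 were lower, Phgdh (−0.37) and Slc1a4 (−0.33), with a median of −0.058 (2 higher without Ctrl+FGF2 replicate 1). Phgdh was not called without Y/T dKD+FGF2 replicate 2 (adjusted p = 0.0668) or 3 (0.053). Of 22 ER chaperones, 11 were higher and 2 lower (median 0.12; 1 lower without Ctrl+FGF2 replicate 2 or 3 or Y/T dKD+FGF2 replicate 3), including Manf (0.40) and the collagen chaperone gene Serpinh1 (0.28). Of 30 lysosomal genes, 10 were higher and 2 lower (median 0.094; 1 lower without Ctrl+FGF2 replicate 2 or 3 or Y/T dKD+FGF2 replicate 1 or 3). The protease gene Ctsb went from 999, 1139 and 1079 to 1867, 1892 and 1857 CPM (0.80) and Ctsk, the collagenolytic cathepsin best known from osteoclasts, from 1.82, 2.15 and 2.04 to 6.03, 5.6 and 7.35 CPM (1.64). Beside Ctsk, the summed level of the 4 blood and macrophage markers was 2.6 to 3.69 CPM in the control and 4.13 to 5.16 CPM in the knockdown libraries, with Cd68 called higher (1.07), Csf1r not called, Hbb-bs without a count and Ptprc, which marks all leukocytes, without a count in the 3 knockdown libraries.

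Of 24 tested interferon-stimulated genes, 11 were lower and 1 higher (median −0.30), but the 11 became 7 without Ctrl+FGF2 replicate 2 or Y/T dKD+FGF2 replicate 2, 6 without Ctrl+FGF2 replicate 3 and 5 without Y/T dKD+FGF2 replicate 1. Ifit2, an inhibitor of viral translation, was at 42.1, 51.2 and 50.01 CPM in Ctrl+FGF2 and 25.6, 23 and 26.8 CPM in Y/T dKD+FGF2 cells (log2 fold change −0.93, standard error 0.077, adjusted p = 4.94e-08). The neighbouring Ifit3 (−1.11) and Ifit3b (−1.53), near-identical copies that may share reads, fell too, whereas the transcription factor gene Irf1 rose (0.40). Of 12 chemokines and cytokines, 4 were higher and 1 lower (median 0.14; 2 lower without Ctrl+FGF2 replicate 2). In the fits that left out 1 of the 6 compared libraries, the median of this list was −0.078 to −0.02. Each of these fits applied its own filter on low counts, so that these medians may be over other members than the 12. Next to Tnfsf11, the monocyte attractant gene Ccl7 rose from 4.76, 4.38 and 3.99 to 9.72, 7.63 and 8.69 CPM (0.99) and the cyclooxygenase gene Ptgs2 by 0.43. Of 23 p53 targets, 8 were lower and 4 higher (median −0.014; 5 lower without Ctrl+FGF2 replicate 1, and 2 higher without Ctrl+FGF2 replicate 2 or 3 or Y/T dKD+FGF2 replicate 1 or 2). Besides Perp, the death receptor gene Fas (−0.83) and the kinase gene Plk2 (−0.69) fell, and the BH3-only gene Pmaip1 rose (0.66).

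Cell cycle genes were higher in knockdown cells than in the average Ctrl+FGF2 library, but this rested in part on single libraries. Of 40 tested replication genes, 28 were called higher and 1 lower (median 0.50). The helicase loading factor gene Cdc45 went from 4.42, 2.54 and 2.04 to 6.51, 9.26 and 7.64 CPM (log2 fold change 1.39, standard error 0.21, adjusted p = 5.89e-05) and the helicase subunit gene Mcm5 from 15.5, 7.14 and 13.2 to 23.1, 26.2 and 23 CPM (log2 fold change 1.03, standard error 0.18, adjusted p = 2.84e-04). The knockdown libraries of both genes lay above the 3 control libraries. Without Ctrl+FGF2 replicate 2 there were 20 replication genes called higher, with a median of 0.38. Of 46 mitosis genes, 26 were called higher (median 0.67) and the other 20 were not called, while DESeq2 called 8 higher. Ccnb1, which encodes cyclin B1, was at 12.2, 4.76 and 6.88 CPM in Ctrl+FGF2 and 16.6, 20.5 and 16.5 CPM in Y/T dKD+FGF2 cells (log2 fold change 1.19, standard error 0.28, adjusted p = 0.00275). The kinetochore genes Spc24 (1.39) and Ndc80 (1.0) rose, and the kinase gene Aurkb (1.06, adjusted p = 0.0125) lost its call without Ctrl+FGF2 replicate 2 (0.0558) or Y/T dKD+FGF2 replicate 2 (0.0713). The number of mitosis genes called higher was 41 without Ctrl+FGF2 replicate 1, 8 without replicate 2 and 14 without replicate 3 of that group, and 7 without Y/T dKD+FGF2 replicate 2 and 10 without replicate 3. The median level of the list on the log2(CPM + 0.5) scale was 3.32, 2.16 and 2.95 in the Ctrl+FGF2 libraries and 3.33, 3.53 and 3.50 in the Y/T dKD+FGF2 libraries. Ctrl+FGF2 replicate 1 was therefore at the level of the lowest knockdown library. Of 22 genes of the G1 machinery, 10 were higher and 5 lower (median 0.26): Ccne2, a cyclin E gene (1.08), and the atypical E2F genes E2f7 (1.14) and E2f8 (1.04) rose, and the CDK inhibitor gene Cdkn1c fell from 45.6, 38.6 and 37.5 to 18.1, 19.6 and 19.3 CPM (−1.09).

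**Figure D4:**
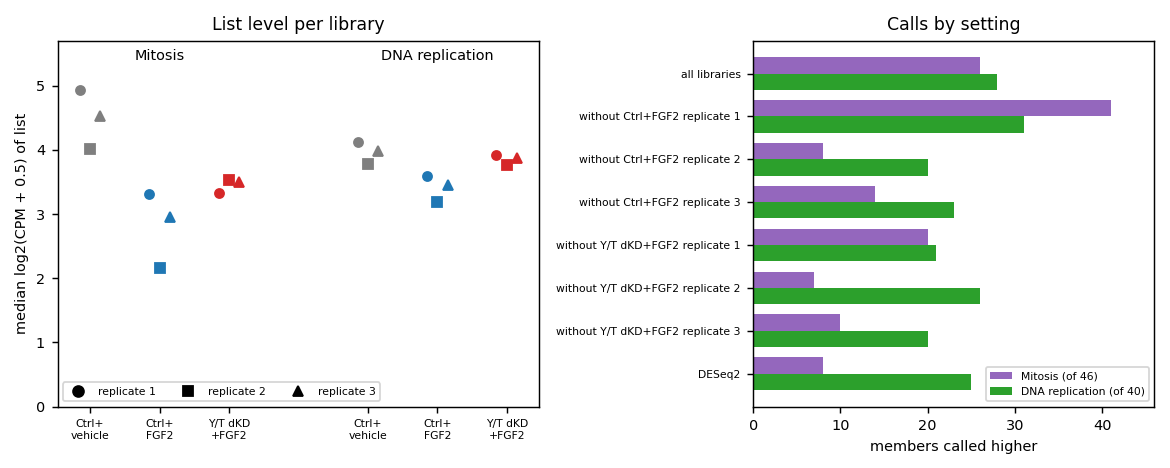
Left, the median of log2(CPM + 0.5) over the members of the mitosis and DNA replication lists in each d5 library, with the replicate number as the symbol; right, the number of members called higher in Y/T dKD+FGF2 cells with all libraries, without each compared library and by DESeq2. Ctrl+FGF2 replicate 2 has the lowest mitosis level of the 9 libraries, and the mitosis bar falls from 26 to 8 without it, while the replication bar stays at 20 or more.

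Lineage, cytoskeletal and adhesion genes were split. Of 13 tested transcription factor and marker genes of the neural crest, 5 were higher and 5 lower (median −0.049). The intermediate filament gene Nes went from 1.39, 2.0 and 1.27 to 5.87, 3.97 and 6.78 CPM (1.80) and Snai2, a regulator of epithelial-mesenchymal transition, from 45.9, 43.7 and 44 to 62.5, 65 and 67.4 CPM (0.54). Against these rises, Ebf1 (−1.66) and the early crest factor gene Pax3 (−0.77) fell, Pax3 from 16.2, 15.4 and 16 to 8.84, 9.96 and 8.98 CPM. Of 25 contractile genes and targets of Srf, 9 were lower and 7 higher (median −0.006; 4 higher without Y/T dKD+FGF2 replicate 1). Thbs1, the thrombospondin gene, which is also cited as a Yap target, was at 3905, 4340.2 and 4133 CPM in the control and 1921, 1781 and 1868 CPM in the knockdown libraries (log2 fold change −1.15, standard error 0.049, adjusted p = 1.47e-11), and the LIM domain gene Fhl1 fell by 1.64 on the log2 scale. The 4 smooth muscle markers summed to 2519 to 2896 CPM in the control and 1978 to 2147 CPM in the knockdown libraries. Most of this sum was Acta2 (group means of 2643 and 1992 CPM), while Tagln was not called and Myh11 was not tested. Cnn1 (0.723 and 1.38 CPM) was called higher (0.95), a call lost with DESeq2 (adjusted p = 0.203). A part of smooth muscle cells in this list was not tested. Of 33 integrins, laminins and matricellular genes, 9 were lower and 8 higher (median 0.018; 5 higher without Y/T dKD+FGF2 replicate 2). Lama4 rose from 47.4, 49.6 and 52.7 to 113, 117 and 111 CPM (1.19) and Lama5 fell from 92.4, 101 and 103 to 46.1, 54 and 46.8 CPM (−1.01), 2 laminin alpha chains in opposite directions, and Ccn4 rose (0.96) while Itga1, a collagen-binding integrin gene, fell (−0.88).

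The levels of Ctrl+vehicle cells at d5 give a reference for these changes; since both comparisons use the Ctrl+FGF2 libraries, the values are set side by side with no test. F13a1 was at 15.9, 20.4 and 16.6 CPM in Ctrl+vehicle, with a log2 fold change of −4.56 for Ctrl+FGF2 against Ctrl+vehicle beside 4.63 for the knockdown, and the knockdown libraries overlapped those of Ctrl+vehicle. Alpl was at 159, 143 and 154 CPM in Ctrl+vehicle (−1.56 with FGF2), and Col1a1 at 30716, 28529 and 30321 CPM (−0.93 with FGF2). For both genes the knockdown libraries lay between the other 2 groups. Dmp1, at 1.7, 2.02 and 1.09 CPM in Ctrl+vehicle, was already higher in each Ctrl+FGF2 library (1.86) and stood above both groups after the knockdown. Aldh1a1, at 48.7, 55.7 and 49.5 CPM in Ctrl+vehicle (1.21 with FGF2), ended below both groups. The sterol gene Msmo1 was at 153, 117 and 135 CPM without FGF2 (−1.13 with FGF2) and was lowest in the knockdown libraries. Dusp6 was at 24.6, 34.3 and 27.8 CPM in Ctrl+vehicle and overlapped Ctrl+FGF2 (−0.19), so that only the knockdown libraries stood apart. The genes thus had no common order of the 3 groups.

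A knockdown with the same siRNA pools under FGF2 was measured at d2.5 in other libraries. Whether its effect differed between d2.5 and d5 was tested over all 18 libraries. How far Yap1 and Wwtr1 fell at d2.5 is not given here, so that an equal depth of knockdown on both days is not shown. Of 14198 genes, 1646 had a higher and 1327 a lower log2 fold change at d5 than at d2.5 (20.9% in all). The labels make each day a batch of its own, so that day and batch cannot be told apart in this difference. The AP-1 and early response factors differed with 13 of 19 having a positive difference and the other 6 not passing the test (median effect 0.61 at d5 and −0.25 at d2.5). Fosl1 changed by 1.19 at d5 and −0.47 at d2.5 (difference 1.66, standard error 0.18, adjusted p = 7.40e-08). Of the ERK feedback genes 12 of 18 had a positive and 1 a negative difference, with a median effect of −0.017 at d2.5. Dusp4 changed by 1.89 at d5 and −0.052 at d2.5 (difference 1.95, standard error 0.16, adjusted p = 6.45e-10) and Etv4 by 1.53 at d5 and −0.033 at d2.5 (difference 1.56, standard error 0.12, adjusted p = 2.13e-10). Their effect was thus larger at the later day by the test of the difference itself. In the opposite way, 18 of 27 interferon-stimulated genes had a negative and 1 a positive difference: their median effect was 0.54 at d2.5 and −0.32 at d5. Ifit3 changed by −1.11 at d5 and 0.97 at d2.5 (difference −2.08, standard error 0.27, adjusted p = 1.35e-06). Of the sterol genes 11 of 24 had a negative and 2 a positive difference (median −0.24 at d2.5 and −0.55 at d5). Among the osteoblast matrix genes 8 of 25 had a positive and 4 a negative difference, and their median effects were alike (0.30 and 0.33), although Dmp1 changed by 3.25 at d5 and 1.11 at d2.5 (difference 2.15, standard error 0.12, adjusted p = 2.40e-13). Replication genes had a positive difference in 20 of 40 and a negative one in 1, and 18 of 46 mitosis genes had a positive difference. Of the Yap/Taz targets 5 had a positive and 6 a negative difference, and Wwc1 changed by −1.81 at d5 and −0.39 at d2.5 (difference −1.42, standard error 0.15, adjusted p = 3.95e-08), whereas no difference was detected for Ankrd1, which changed by −0.50 at d5 and −0.60 at d2.5 (difference 0.10, standard error 0.13, adjusted p = 0.662).

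**Figure D5:**
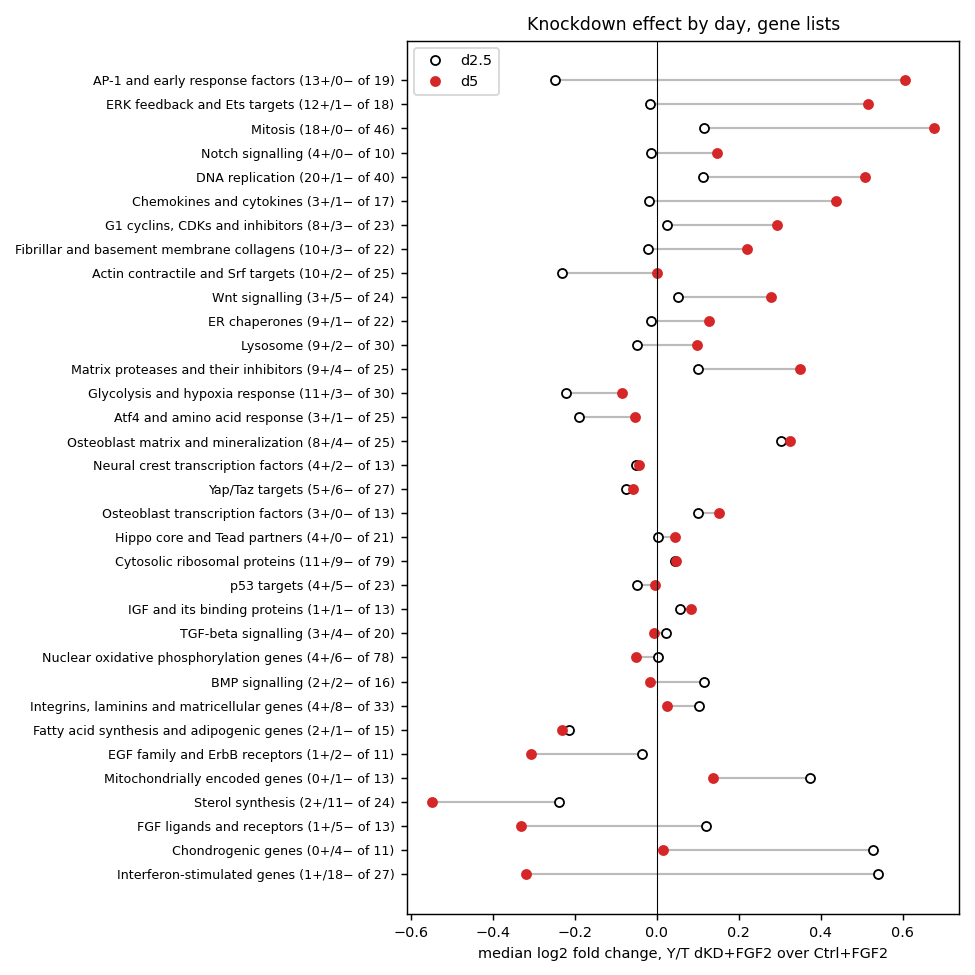
For each gene list, the median log2 fold change of Y/T dKD+FGF2 over Ctrl+FGF2 at d2.5 (open) and d5 (filled) from the fit of all 18 libraries, with the numbers of members whose effects differed between the days in brackets (+ higher at d5, − lower at d5). The AP-1 and ERK feedback lists lie to the right at d5 only, and the interferon-stimulated genes lie on opposite sides of 0.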

How the data were processed

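Poly(A) RNA of O9-1 cells was sequenced at d2.5 and d5 in 3 groups of 3 each. The authors' processing notes name FastQC, STAR, featureCounts and Picard and the build mm10, with versions not given in the sources used here. The deposited files hold raw counts per gene and library in an unstranded and 2 stranded columns; the reverse strand column was used (96.0% to 96.4% of stranded counts), so that antisense genes were counted apart. Reads assigned to no gene (31.9% to 33.5%) stayed out of library sizes. The 9 d5 libraries were fitted together with edgeR 4.0.16 in R 4.3.3 (filterByExpr, TMM factors, quasi-likelihood test, Benjamini-Hochberg threshold 0.05), and the difference between days was tested over all 18. CPM used the TMM library sizes. The alternatives were DESeq2 1.42.0, other factors, filters, library sets, thresholds and strand, a replicate block and leaving out each library.

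The text names the siRNA targets, the 12 largest rises and falls among protein-coding called genes with no overlap between the groups and an average log2 CPM of 1 or more, up to 4 called members per list of the same level, the 3 largest changes of each sign among non-coding genes, and the 5 largest differences between days of each sign; other names were chosen after their values were seen. Some genes that this rule names are not reported here. The comparison and the gene lists were chosen with earlier results of these data known, so that lists are described by counts and medians with no test. On simulated counts of 13173 genes with 199 changed, 89.9% were recovered at a log2 change of 0.8, and 6.5% of calls were false. In the data 31.7% of genes were called, with a median absolute log2 fold change of 0.34. The simulation therefore does not give the recovery or the false share for changes so small and so common. Of promoters, 20 of 27 Yap/Taz targets and 16 of 24 sterol genes were matched by symbol.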

Additional observations from a re-analysis of the deposited data

Results flagged for a closer look

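The log2 fold change of the knockdown was more positive at d5 than at d2.5 for 1646 of 14198 genes and more negative for 1327. The edgeR test of the difference used all 18 libraries. A negative difference can thus be a stronger fall at d5. Among called protein-coding genes with an average log2 CPM of 1 or more, the largest positive differences were those of the pentraxin gene Nptx1 (2.73 at d5 and −0.24 at d2.5, a difference of 2.97 (standard error 0.30, adjusted p = 1.63e-08)), the ubiquitin ligase gene March4 (2.67 at d5 and −0.063 at d2.5, a difference of 2.73 (standard error 0.21, adjusted p = 2.24e-10)), Serpinb2, which encodes the plasminogen activator inhibitor PAI-2 (3.22 at d5 and 0.49 at d2.5, a difference of 2.73 (standard error 0.50, adjusted p = 1.63e-04)), and the nuclear phosphatase gene Dusp2 (2.77 at d5 and 0.36 at d2.5, a difference of 2.41 (standard error 0.33, adjusted p = 2.80e-06)). Ndnf, which encodes a secreted neurotrophic factor, had effects of 1.07 at d5 and −1.45 at d2.5, a difference of 2.52 (standard error 0.88, adjusted p = 0.0465). It was near 0 CPM at d2.5, and its call was lost with DESeq2 (adjusted p = 0.0931) and without 9 of the 12 libraries in turn, with adjusted p-values of 0.0533 (without d5 Y/T dKD+FGF2 replicate 2) to 0.163 (without d2.5 Y/T dKD+FGF2 replicate 3).

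Under the same limit on the level, the largest negative differences were in Limch1, a regulator of myosin II (−1.97 at d5 and 0.83 at d2.5, a difference of −2.79 (standard error 0.42, adjusted p = 1.46e-05)), the acyl-CoA synthetase gene Acsl6 (−2.44 at d5 and 0.035 at d2.5, a difference of −2.47 (standard error 0.41, adjusted p = 4.13e-05)), the antiviral gene Oas3 (−2.18 at d5 and 0.26 at d2.5, a difference of −2.43 (standard error 0.39, adjusted p = 3.57e-05)), the enkephalin precursor gene Penk (−1.70 at d5 and 0.65 at d2.5, a difference of −2.35 (standard error 0.24, adjusted p = 2.40e-08)) and the liprin gene Ppfibp2 (−0.41 at d5 and 1.73 at d2.5, a difference of −2.14 (standard error 0.33, adjusted p = 2.09e-05)). The effects of Penk and Ppfibp2 passed the test with opposite signs on the 2 days, while those of Limch1, Acsl6 and Oas3 at d2.5 did not pass (adjusted p = 0.147, 0.96 and 0.4). At d2.5 Ppfibp2 was at 0.423, 0.291 and 0.668 CPM in Ctrl+FGF2 and 1.57, 1.09 and 2.05 CPM in Y/T dKD+FGF2. Its change of sign therefore rests on few counts. Limch1 (0.531 and 0.962 CPM) and Acsl6 (1.14 and 1.17 CPM) were also low at d2.5 by group means, with Penk at 6.54 and 10.2 CPM. Genes of lower level had differences as large: Hgf had 4.10 (adjusted p = 1.93e-06), Ifit3b −2.55 (adjusted p = 9.50e-05) and Cxcr4 −2.54 (adjusted p = 0.0396). Each day was also its own batch in the labels, and the part of the batch in these differences cannot be told apart from that of the day.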

How the results depend on the processing

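Of 202 named genes that were called at d5, 167 kept their call in each of 15 refits that gave them a value. The other 35 lost it in at least 1, and none of the named genes reversed. Genes of few counts have no value where at least 10 counts in every library were asked for. Among the largest rises these were F13a1, Hgf, Igfbp5, Wif1, Nptx1, March4, Syngr1 and Pi15, and among the largest falls Pde1a, Car2 and Cxcr4. With DESeq2, 1578 genes were higher and 1547 lower at d5. Counts moved by over 1.5 times under stricter thresholds: at an adjusted p under 0.01 in place of 0.05, 1375 genes were higher at d5, and 995 had a positive and 786 a negative difference between days; at an adjusted p under 0.05 and a change of at least 1.5-fold, 486 were higher and 593 lower at d5. Leaving out 1 compared library gave 1630 to 1964 genes higher and 1711 to 1983 lower at d5, and 1327 to 1604 positive and 1113 to 1338 negative differences. In these fits a group of 2 was assumed to vary like the others.

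With the replicate number as a block (replicate block), 2185 genes were higher and 2169 lower at d5, and 1607 had a positive and 1310 a negative difference. Same-numbered Ctrl+FGF2 and Y/T dKD+FGF2 libraries did not deviate together (correlations of −0.063 to −0.023 over genes, 3 pairs). Same-numbered Ctrl+vehicle and Ctrl+FGF2 libraries had correlations of 0.145, 0.157 and 0.0273. Between replicates 1 and 2 of these 2 groups the crossed values were −0.129 and −0.154. Whether the numbers pair the samples is therefore not settled by these values.

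Of 68 list counts, 43 stayed within 1.5 times in every refit. Under DESeq2, 3 osteoblast factors and 8 mitosis genes were called higher (6 and 26 by edgeR), 5 interferon-stimulated genes lower (11 by edgeR), 3 BMP genes and 3 proteases lower (5 each by edgeR), 2 p53 targets and 1 EGF gene higher (4 and 2), 4 ribosomal protein genes higher and 2 lower (8 and 4), 4 oxidative phosphorylation genes lower (8) and 1 Atf4 gene lower (2), and Il17rd was not called. Without the filter on low counts, 41 mitosis genes were higher, and 4 Atf4 genes were higher and 9 lower; with only the 6 compared libraries, 4 Atf4 genes were higher and 7 lower, and with the block 4 were lower. With all 18 libraries, 16 ribosomal protein genes and 2 chondrogenic genes were higher (8 and 1), 2 chemokines were lower (1, and 2 with upper-quartile factors), and the 5 mitochondrial genes were not called. Leaving out 1 compared library also turned the sign of list medians near 0, which then ran from −0.013 to 0.036 (Hippo core), −0.03 to 0.015 (contractile genes), −0.10 to 0.011 (BMP), −0.019 to 0.016 (TGF-beta), −0.033 to 0.024 (p53 targets) and −0.012 to 0.062 (integrins). Each fit applied its own filter on low counts, so that its list medians and counts may include other members. The cause of these shifts was not tested. Genes of few counts, such as F13a1 and Hgf in Ctrl+FGF2 cells, limit how exactly the largest folds are known.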

Other observations

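Non-coding genes were called in smaller shares than protein-coding ones, of which 2019 of 11556 were higher and 2090 lower after the knockdown at d5. Of 160 tested lincRNA genes, 11 were higher and 10 lower; of 139 antisense genes, 7 were higher and 11 lower; and of 1045 processed pseudogenes, which may take reads from their parent genes, 24 were higher and 15 lower. Levels were not matched between these classes.

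Genes outside the protein-coding class were named only where the groups did not overlap. Ptprv, annotated as a processed transcript (chromosome 1, 135108497 to 135132594, build GRCm38), was at 61.5, 63.2 and 65.3 CPM in Ctrl+FGF2 and 139.9, 146 and 146 CPM in Y/T dKD+FGF2 cells (log2 fold change 1.18, standard error 0.053, adjusted p = 2.83e-11). The lincRNA genes 3300005D01Rik (1.44, adjusted p = 1.69e-04) and Gm10419 (1.22, adjusted p = 0.00891) rose, both at low levels. The largest falls outside protein-coding genes were in Ighm, an immunoglobulin constant region gene (−1.10, adjusted p = 0.0178), and in Gm43034 (−0.96) and Gm9260 (−0.91). The call of Ighm was lost without Ctrl+FGF2 replicate 1 (adjusted p = 0.107) or 3 (0.0521) and without Y/T dKD+FGF2 replicate 1 (0.0753) or 2 (0.0567).

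The 4 endothelial markers summed to 1.19 to 1.82 CPM in Ctrl+FGF2 and 0.955 to 1.4 CPM in Y/T dKD+FGF2 libraries, the 4 markers of glia to 1.3 to 2.15 and 1.13 to 1.4 CPM, and the 3 chondrocyte markers to 305 to 407 and 368 to 380.1 CPM. Most of the chondrocyte sum was Col2a1 (group means of 222 and 275 CPM), which was not called, while Acan and Sox9 were called lower.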
